A study of Mus musculus with 6 samples.

Results

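The regions described here are broad domains of trimethylated lysine 4 of histone H3 (H3K4me3) that were called in natural killer (NK) cells of both genotypes. A domain is a peak of the WT H3K4me3 list on chromosomes 1 to 19 or X that spans at least 4000 bp and overlaps a KO H3K4me3 peak by at least 1 bp. There were 837 such domains among 13753 WT peaks on these chromosomes and 13771 distinct WT peaks in all. Of 854 WT peaks of that width on these chromosomes, 17 overlapped no KO peak. The choice rests on WT width and on overlap, so the width of the domains, and every ratio that holds WT width, is a description and supports nothing.

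KO cells were Tcf7-/- (strain label B6.129 Tcf7Tm1Cle) and WT cells were Tcf7+/+ (strain label B6), so genotype and strain background cannot be told apart. Both were NK cells from spleen, grown for 5 days with 500 ng/mL of IL-2 and fixed for 10 min in 1% formaldehyde. Tcf7 is the gene for the transcription factor Tcf1, whose part in NK cell development and granzyme expression the study addressed. Each genotype gave 1 H3K4me3 library, 1 Tcf1 library and 1 input. Differences between KO and WT therefore lack any replicate error, and p-values are not used. Fewer cells carrying the mark at a locus and less mark per cell cannot be told apart.

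H3K4me3 is laid down around the start of transcription by SET1 and MLL complexes, and most marked promoters carry a short peak beside the start site. At a small set of genes the mark runs for several kilobases into the gene body. In many cell types such wide domains lie at genes that define the cell's identity or that are highly and steadily transcribed. In NK cells these include receptors, cytotoxic proteins and the transcription factors of the lineage.

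Sequence around the start sites is shown for domains that the results below turn on. They are the 3 widest domains with an entry in the RefSeq promoter table (GRCm38.p6), the 3 with the lowest and the 2 with the highest KO over WT tag ratio that have one. Domains without a usable entry were passed over. Each run covers 250 bases before to 50 after the start, 5′ to 3′ on the gene's strand, with CG dinucleotides in capitals.
Ugcg (chr4:59189300-59189599, strand +): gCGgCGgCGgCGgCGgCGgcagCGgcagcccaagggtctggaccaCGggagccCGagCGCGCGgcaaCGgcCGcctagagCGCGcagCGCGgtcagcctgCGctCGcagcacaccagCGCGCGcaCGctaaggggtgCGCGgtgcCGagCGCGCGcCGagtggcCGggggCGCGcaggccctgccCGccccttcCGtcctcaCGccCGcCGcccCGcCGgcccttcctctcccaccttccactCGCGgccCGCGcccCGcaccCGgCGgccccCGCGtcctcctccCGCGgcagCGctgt
Stk17b (chr1:53785166-53785465, strand -): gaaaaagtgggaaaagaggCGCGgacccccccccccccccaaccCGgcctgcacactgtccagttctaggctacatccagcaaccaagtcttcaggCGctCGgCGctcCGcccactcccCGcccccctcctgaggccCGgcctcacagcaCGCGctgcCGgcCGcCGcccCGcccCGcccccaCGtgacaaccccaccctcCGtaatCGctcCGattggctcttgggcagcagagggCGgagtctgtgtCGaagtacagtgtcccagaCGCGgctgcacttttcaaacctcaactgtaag
Pfn1 (chr11:70654601-70654900, strand -): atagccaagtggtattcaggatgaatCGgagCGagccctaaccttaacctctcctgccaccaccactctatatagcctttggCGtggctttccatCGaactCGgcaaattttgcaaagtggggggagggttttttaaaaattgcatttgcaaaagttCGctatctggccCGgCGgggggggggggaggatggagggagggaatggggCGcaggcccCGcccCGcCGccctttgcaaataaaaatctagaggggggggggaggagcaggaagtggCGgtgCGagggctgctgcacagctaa
Vegfa (chr17:46032328-46032627, strand -): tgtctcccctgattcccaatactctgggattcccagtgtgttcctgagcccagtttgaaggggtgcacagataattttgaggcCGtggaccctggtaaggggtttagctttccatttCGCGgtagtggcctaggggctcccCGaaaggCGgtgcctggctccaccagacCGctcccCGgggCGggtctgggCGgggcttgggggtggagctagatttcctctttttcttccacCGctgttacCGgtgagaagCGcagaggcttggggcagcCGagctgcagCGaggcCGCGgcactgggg
Slc16a3 (chr11:120948817-120949116, strand +): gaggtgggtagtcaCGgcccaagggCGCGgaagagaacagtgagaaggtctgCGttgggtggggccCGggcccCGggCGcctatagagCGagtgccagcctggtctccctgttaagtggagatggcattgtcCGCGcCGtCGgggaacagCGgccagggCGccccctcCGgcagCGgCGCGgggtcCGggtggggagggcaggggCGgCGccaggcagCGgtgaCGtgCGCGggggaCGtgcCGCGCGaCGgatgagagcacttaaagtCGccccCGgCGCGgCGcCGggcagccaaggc
Zap70 (chr1:36761548-36761847, strand +): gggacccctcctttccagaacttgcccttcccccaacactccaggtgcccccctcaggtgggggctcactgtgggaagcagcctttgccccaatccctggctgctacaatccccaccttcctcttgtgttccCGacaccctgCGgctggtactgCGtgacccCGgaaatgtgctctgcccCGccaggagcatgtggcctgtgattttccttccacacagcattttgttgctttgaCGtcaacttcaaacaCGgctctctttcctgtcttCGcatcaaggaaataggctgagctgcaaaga
Tnfsf10 (chr3:27316827-27317126, strand +): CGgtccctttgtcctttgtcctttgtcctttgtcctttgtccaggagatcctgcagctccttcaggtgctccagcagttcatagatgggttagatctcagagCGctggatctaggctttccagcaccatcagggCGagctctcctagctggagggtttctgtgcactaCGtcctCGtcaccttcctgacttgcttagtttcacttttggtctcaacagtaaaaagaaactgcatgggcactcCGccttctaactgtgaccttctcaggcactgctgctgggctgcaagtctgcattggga
Hic1 (chr11:75168103-75168402, strand -): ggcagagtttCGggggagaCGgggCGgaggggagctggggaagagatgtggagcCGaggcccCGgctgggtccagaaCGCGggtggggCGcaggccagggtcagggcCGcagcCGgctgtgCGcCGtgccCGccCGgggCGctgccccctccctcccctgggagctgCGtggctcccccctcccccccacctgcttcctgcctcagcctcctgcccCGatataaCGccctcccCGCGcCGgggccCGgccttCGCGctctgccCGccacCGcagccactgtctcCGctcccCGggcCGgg

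The Ugcg promoter holds 53 CG dinucleotides and that of Tnfsf10 holds 6. Vegfa has 16, Slc16a3 has 36 and Zap70 has 8, so the domains with low KO tags do not share one CG content. Over the 920 table promoters whose start lies in a domain, the median was 23 CG, equal to the 23 of the 8923 promoters in smaller shared peaks. Promoters in no H3K4me3 peak had a median of 4, and all 21045 promoters had 13. Wide and narrow marked promoters thus had like CG counts, and both had more than unmarked ones.

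Short motifs were searched on both strands and counted once per promoter. The GC box core GGGCGG was present in 68.2% of domain promoters, in 68.7% of those in smaller shared peaks and in 46.7% of all promoters. TATAAA was present in 6.63% of domain promoters, 5.56% in smaller shared peaks and 12.7% of all. The Tcf/Lef core CTTTGA stood in 10.5% of domain promoters, 10.8% in smaller shared peaks and 14.4% of all. The Runx core TGTGGT had shares of 10.7%, 11.8% and 14.7% in the same order. The STAT5 core, TTC and GAA with any 3 bases between, had 6.41%, 6.70% and 7.76%. None of these motifs holds another. ACGTG, the core bound by hypoxia-inducible factors, stood in 24.5% of domain promoters, 27.6% in smaller shared peaks and 21.1% of all. Among the printed promoters ACGTG occurs 2 times in Slc16a3, 1 time in Stk17b and not at all in Vegfa. Domain promoters and promoters of smaller shared peaks thus held these letters at like rates. A match is a description of letters and no evidence of binding.

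The domains over Mir142, Mir21a and Mirlet7i hold no known start of a coding gene. Their mature strands (RefSeq, GRCm38.p6) are shown with the seed (bases 2 to 8) in capitals, because they name microRNAs under a wide domain, and each has a seed of its own. These loci were chosen after their values were seen.
mmu-miR-142a-5p (chr11:87756867-87756887, strand +): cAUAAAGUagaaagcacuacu
mmu-miR-142a-3p (chr11:87756903-87756925, strand +): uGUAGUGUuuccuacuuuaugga
mmu-miR-21a-5p (chr11:86584120-86584141, strand -): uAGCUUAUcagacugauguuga
mmu-let-7i-5p (chr10:122985698-122985719, strand -): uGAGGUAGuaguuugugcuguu

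The H3K4me3 lists held 7507763 tags (reads counted in peaks) in 11074 KO peaks and 6635272 tags in 13771 WT peaks. These are sums over called peaks and not sequencing depths, which are unknown here. The median fold enrichment the authors' peak caller gave was 18.4 in the KO list and 30.8 in the WT list. Below, the width ratio is the log2 of the length of all KO peaks over a domain, divided by the WT length. The tag ratio is the log2 of KO over WT tags minus 0.25, the median over all 10664 WT peaks that overlap a KO peak. KO tags outside a called peak are not counted, so a tag ratio falls where a KO peak is called shorter. Intervals are 95% and cover counting error only, since PCR copies were not identified.

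The NK label was checked against marker genes. All 9 NK markers (Ncr1, Klrk1, Klrb1c, Klrd1, Eomes, Tbx21, Prf1, Nkg7 and Il2rb) had their start in a domain. The wider list of 28 NK receptors and adaptors was less complete, with 21 starts in a shared peak and 11 in a domain. Klrc1, Klrg1, Klra4, Cd226, Tigit, Slamf6 and Crtam had no shared peak at their start. Of 14 T cell markers with a known start, 5 were marked in both libraries (Cd247, Cd28, Icos, Lat and Thy1) and Thy1 alone lay in a domain, while Cd3d, Cd3e, Cd3g, Cd4 and Cd8a were in no shared peak. None of 7 B cell and none of 13 non-blood genes was marked in both libraries, and of 11 myeloid and 8 erythroid markers Cebpb and Tfrc were. Marked starts numbered 5 in KO and 7 in WT for T cell markers, 0 in KO and 1 in WT for B cell markers, and 1 in KO and 3 in WT for myeloid markers. The tag ratio, defined above, was −1.41 at Icos (91 tags in KO, 203 in WT), −1.03 at Cd28, −0.47 at Lat, 0.35 at Cd247, 0.09 at Thy1, −0.56 at Cebpb and −0.04 at Tfrc. Part of these markers thus moved the same way as the domains that were lower in KO, and their part in those results was not tested. No domain covered a B cell, myeloid, erythroid or non-blood marker start. At Tcf7 itself the mark was present in both libraries, with 535 tags over 2872 bp in KO and 525 tags over 3669 bp in WT. The Tcf7 peak is under 4000 bp and so is no domain, and a mark at the promoter does not check the deletion.

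The 837 domains made up 6.09% of WT peaks on these chromosomes, 14.6% of their bases and 17.7% of their tags. The 878 KO peaks beneath them held 18.01% of KO tags. The KO peaks covered 3817 kb at 354 tags per kb, and the WT domains covered 4419 kb at 265 tags per kb. The mark over the domains was thus spread over less called sequence in KO, at a higher raw density. The whole lists did the same, with 7507763 tags over 25124 kb in KO and 6635272 tags over 30354 kb in WT. Neither trait is thus particular to the domains. At the 4000 bp limit, Kctd12 (4074 bp in KO, 4000 bp in WT), Trim28 with Gm31649 (3427 bp in KO, 4000 bp in WT) and Msl1 (3906 bp in KO, 4003 bp in WT) fell just inside. Fgfr1op2 with Ints13 (4019 bp in KO, 3998 bp in WT), Gga1 (3864 bp in KO, 3995 bp in WT) and Nr3c1 (3788 bp in KO, 3992 bp in WT) fell just outside.

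Domains were narrower in KO at most loci. The median width was 4313 bp in KO (851 to 11678) and 4797 bp in WT (4000 to 18678), and the median width ratio was −0.14 with quartiles of −0.32 and −0.05. The KO width was the smaller in 722 of 837 domains (86.3%, Wilson interval 83.8 to 88.4), beside 63.9% of all shared peaks. It was 0.5 of the WT width or less in 22 domains (2.63%), beside 0.347% of all shared peaks. In 40 domains (4.78%) the WT peak lay over more than 1 KO peak, beside 0.581% of all shared peaks. The most pieces were at Bcl6, a repressor of lymphocyte differentiation, whose 8795 bp WT domain lay over 3 KO peaks that total 8002 bp. In 524 domains (62.6%) the widest KO peak also reached 4000 bp.

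**Figure D1:**
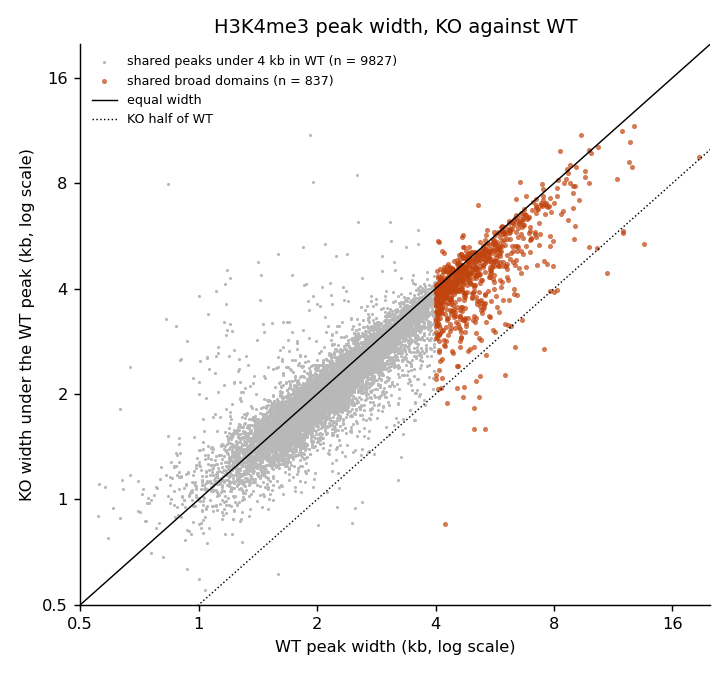
Width of each shared H3K4me3 peak, with the summed length of the KO peaks on the y axis and the WT peak on the x axis (kb, log scales). Orange points are the 837 domains and grey points the 9827 shared peaks under 4000 bp. The solid line is equal width and the dotted line a KO width of 0.5 of the WT width, with 22 domains on or below the dotted line.

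Because domains were picked for width in WT, a lower KO width follows in part from the choice. The same measure was therefore taken with the libraries exchanged. Of 565 KO peaks of at least 4000 bp, 562 overlapped a WT peak, and 525 of these (93.4%) lay on a domain. In this set the median width ratio was −0.07. The KO width was still the smaller at 425 of 562 peaks (75.6%), beside 63.9% of all shared WT peaks. KO width was 0.5 of WT width or less at 6 of the 562, and WT width was 0.5 of KO width or less at 1. Chosen by WT width, the median ratio was −0.11 at 4000 to 5000 bp (n = 472), −0.17 at 5000 to 6000 bp (n = 197), −0.18 at 6000 to 8000 bp (n = 125) and −0.20 above that (n = 43). Chosen by KO width, the same classes gave −0.06, −0.09, −0.09 and −0.05 (n = 352, 122, 68 and 20). The direction was thus the same under both choices, and the size was smaller under the second. Narrower peaks chosen by KO width had medians of −0.25 under 1000 bp, −0.06 at 1000 to 2000 bp, −0.04 at 2000 to 3000 bp and −0.04 at 3000 to 4000 bp. Under that choice a lower KO width was thus not particular to wide peaks. Fold enrichment moved with it, with medians of 21.7 at KO peaks and 51.95 at WT peaks of the domains, and its part in the width difference was not tested.

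**Figure D2:**
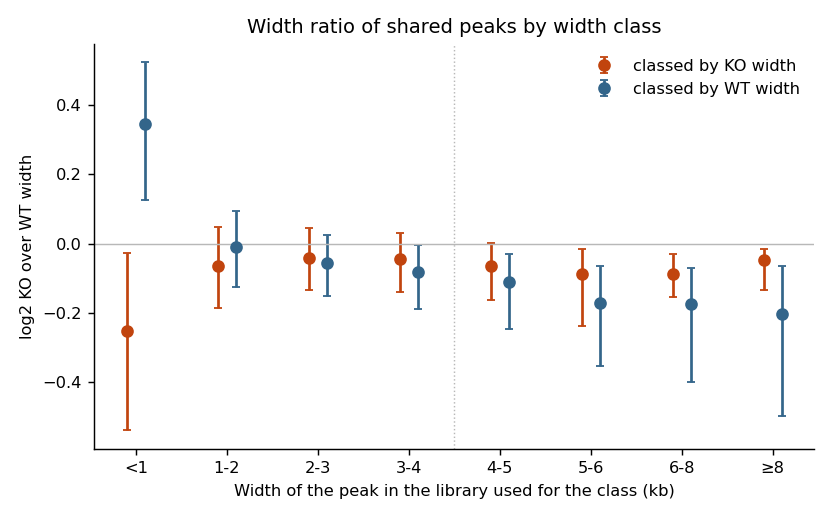
Median log2 KO over WT width of shared peaks by width class (kb), with bars from the lower to the upper quartile. Orange points class peaks by KO width and blue points by WT width, and classes right of the dotted line are at least 4 kb wide. Both choices give medians below 0 in those classes, from −0.05 to −0.20.

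Summed tags lay near the centre of all shared peaks. The median domain held 1514 tags in KO and 1303 tags in WT, and the median tag ratio was −0.03 (quartiles −0.17 and 0.09). The ratio was −1 or less in 18 domains (2.15%), beside 1.6% of all shared peaks, and 1 or more in 1 domain (0.119%), beside 0.91%. Per kb of called peak the median was 0.09, with 3 domains at −1 or less and 1 domain at 1 or more, beside 0.797% and 0.338% of all shared peaks. The sign of the median thus turned with the measure. The counting interval of the tag ratio lay below 0 in 297 domains, above 0 in 194 and over 0 in 346. The same counts over all shared peaks are not given here, so these are no result about the domains. Domains held more tags than smaller shared peaks (WT medians of 1303 and 455), which makes their counting intervals narrower. The 19 domains on X had a median of −0.04 and the 818 on autosomes −0.03.

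Most domains sat on promoters and ran into the gene. A start site of a coding gene lay in 763 of 837 domains (91.2%, 89.0 to 92.9), beside 87.1% of smaller shared peaks. They covered the starts of 884 genes, which is 4.47% of the 19786 genes with a known start and 8.62% of the 10255 genes with a start in any shared peak. In 119 domains (14.2%) at least 2 genes had their start, beside 11.3% of smaller shared peaks. The 644 domains over a single gene reached a median of 1188 bp upstream and 3067 bp downstream in KO, and 1340 bp upstream and 3514 bp downstream in WT. The downstream arm was the longer in 88.8% of them in WT, beside 90.9% of smaller shared peaks, so the lean into the gene is not particular to wide peaks.

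Both arms were shorter in KO, by more bases downstream and by a like share of each arm. The median difference, KO minus WT, was −99.5 bp upstream and −271 bp downstream, which was −7.09% and −7.96% of the WT arm as medians over the 644 single-gene domains. The downstream arm lost more bases in 430 of them and the upstream arm in 213. The KO peak ended at least 1000 bp nearer to the start on the downstream side in 118 of the 644 single-gene domains (18.3%) and on the upstream side in 21 (3.26%). The WT upstream arm was itself under 1000 bp in 192 of the 644, so such a loss inside that arm was not possible there. In smaller shared peaks these shares were 0.631% and 0.094%. Their WT arms had medians of only 1344 bp downstream and 684 bp upstream. A loss of 1000 bp thus had little or no room there, and these shares cannot be set against those of the domains. Domains that ended at least 1000 bp farther out in KO numbered 2 downstream and 1 upstream of the 644. Among 7448 smaller shared peaks over a single gene these numbered 13 and 28. The domains were picked for width in WT, so shorter KO arms follow in part from the choice.

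The widest domains show which arms differed at single genes. Ugcg (chr4:59188498-59207175), which encodes the ceramide glucosyltransferase that makes glucosylceramide, had the widest WT peak. Its peak spanned 9530 bp with 2921 tags in KO and 18678 bp with 3376 tags in WT, a width ratio of −0.97 and a tag ratio of −0.46 (−0.53 to −0.39). The upstream arm was 1176 bp in KO and 1053 bp in WT, and the downstream arm was 8354 bp in KO and 17625 bp in WT. The Ugcg difference thus lay wholly at the downstream end. At Stk17b (chr1:53772742-53786269), a serine/threonine kinase that dampens T cell receptor signals, the peak spanned 5368 bp with 1470 tags in KO and 13528 bp with 1708 tags in WT. Its width ratio was −1.33 and its tag ratio −0.47 (−0.57 to −0.37), with a downstream arm of 4473 bp in KO and 12474 bp in WT. Per kb these 2 genes had ratios of 0.46 and 0.81, above the median of shared peaks.

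Several other wide domains were also much shorter in KO. Ptprc (chr1:138164557-138176549), the CD45 phosphatase of all white blood cells, had 5760 bp and 1050 tags in KO and 11993 bp and 1295 tags in WT. Rhoq (chr17:86961335-86972248), a small GTPase, had 4421 bp and 1845 tags in KO and 10914 bp and 2346 tags in WT. Chsy1 (chr7:66108067-66120071), a chondroitin sulfate synthase, had 5834 bp and 2456 tags in KO and 12005 bp and 2467 tags in WT. Ptprc, Rhoq, Chsy1 and Stk17b are the 4 of the 12 widest with a KO width of 0.5 of the WT width or less. Bhlhe40 (chr6:108656510-108669122), a transcription factor of activated lymphocytes, had 8898 bp and 2905 tags in KO and 12613 bp and 2801 tags in WT. Pik3r1 (chr13:101690039-101702470), the regulatory subunit of PI3-kinase, had 9194 bp and 1381 tags in KO and 12432 bp and 1814 tags in WT. Il2rb (chr15:78483942-78495531), the receptor chain for IL-2 and IL-15, had 8229 bp and 3440 tags in KO and 11590 bp and 3023 tags in WT. These 3 were narrower by 0.44 to 0.50 on the log2 scale.

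The other 4 had width ratios of −0.03 to −0.25. The domain of Slc25a11, Rnf167, Eno3 and the actin-binding gene Pfn1 (chr11:70645484-70658286) spanned 11678 bp with 5106 tags in KO and 12803 bp with 4041 tags in WT. That of the signalling adaptors Tyrobp (DAP12) and Hcst (DAP10) with Nfkbid (chr7:30412008-30424530) spanned 10508 bp with 3261 tags in KO and 12523 bp with 2581 tags in WT. Both adaptors pass signals from activating NK receptors. Shisa5 with the exonuclease gene Trex1 (chr9:109048147-109060067) had 11313 bp and 2772 tags in KO and 11921 bp and 2765 tags in WT. Rhof with the H3K4 methyltransferase gene Setd1b (chr5:123135399-123145747) had 10157 bp and 4146 tags in KO and 10349 bp and 3915 tags in WT. All 12 of the widest were narrower in KO, and the tag ratio was below 0 at 10 of them. Of the 12 widest in WT, 6 were also among the 12 widest domains by KO width, and of the 50 widest 30 were.

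**Figure D3:**
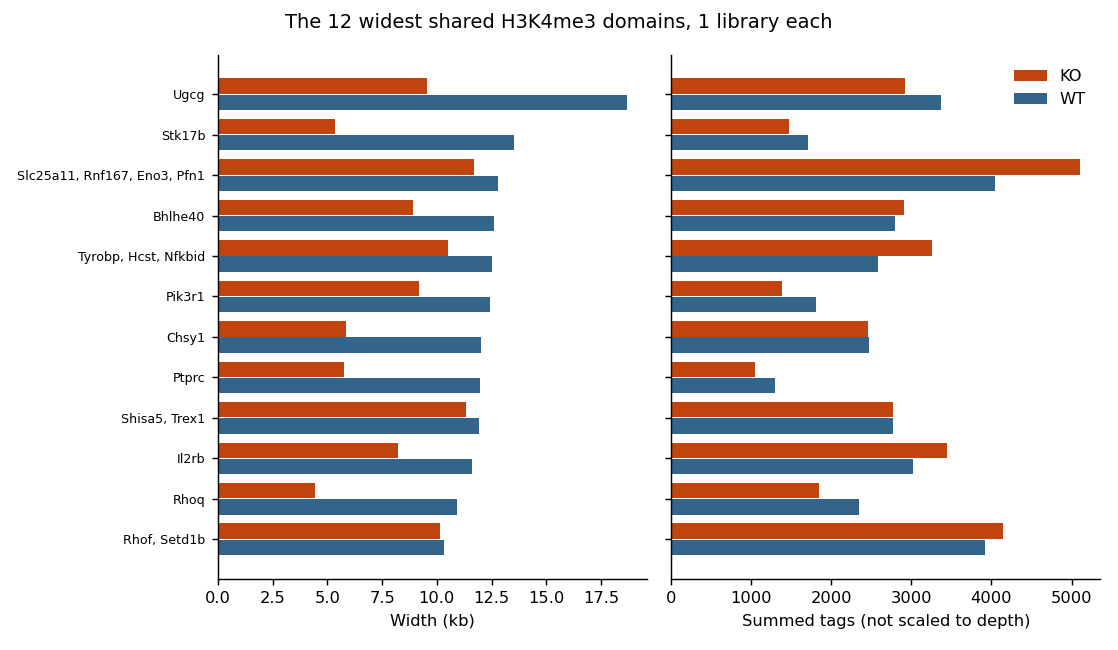
Width in kb (left) and summed tags, not scaled to depth (right), of the 12 widest domains, with KO bars above WT bars and 1 library per bar. All 12 KO bars are the shorter on the left. On the right the KO bar is the longer at 6 of them.

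The lowest tag ratios fell in 2 kinds of place. The first kind is wide WT peaks inside genes or away from coding starts. Of the 74 domains without a known coding start, 45 lay inside coding genes, 23 touched only noncoding genes and 6 touched none. A tag ratio of −1 or less was found in 9 of these 74 (12.2%), beside 9 of the 763 with a start (1.18%). A KO width of 0.5 of the WT width or less was found in 10 of the 74 (13.5%), beside 12 of the 763 (1.57%). Domains without a start held fewer tags, with medians of 774 in KO and 707 in WT, beside 1558 in KO and 1331 in WT for those with one, and the part of the lower tags was not tested.

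Fli1, an ETS factor of blood cells, carries both kinds of domain. The one inside the gene (chr9:32505595-32510925) had 1585 bp and 109 tags in KO and 5331 bp and 411 tags in WT, a tag ratio of −2.17 (−2.47 to −1.86). The promoter domain of Fli1 (chr9:32537002-32544293) had 6734 bp and 3137 tags in KO and 7292 bp and 2791 tags in WT, a tag ratio of −0.08. Gramd4 gave the same picture, with 174 tags in KO and 500 tags in WT inside the gene (chr15:86066678-86071205) and 1113 tags in KO and 1081 tags in WT at its start (chr15:86058013-86062215). The start domain's ratio at Gramd4 was −0.21, against −1.77 inside the gene, so at both genes the inner domain was much the lower. A second Eomes domain inside that gene (chr9:118485597-118490257) had 440 tags in KO and 563 tags in WT, a ratio of −0.61, beside 0.02 at the Eomes promoter.

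The other inner domains of lowest ratio lay in Bcor, Bahcc1 and Ccdc88c. Bcor encodes a partner of the repressor Bcl6, and this domain (chrX:12132910-12137964) had 116 tags in KO and 427 tags in WT. Another domain inside Bcor had 1495 tags in KO and 1486 tags in WT, a ratio of −0.24. The Bahcc1 domain (chr11:120233178-120238325) had 211 tags in KO and 723 tags in WT, and the Ccdc88c domain (chr12:101013929-101018947) had 160 tags in KO and 461 tags in WT. The lowest ratio of all, −2.35 (−2.70 to −1.996), was at the pseudogene Klra13-ps of the Ly49 receptor cluster (chr6:130303810-130308810), with 1587 bp and 80 tags in KO and 5001 bp and 342 tags in WT. Ly49 genes are near-identical copies, so their reads may be shared, and this value is uncertain. Fold enrichment at these low KO peaks was 3.94 to 6.90, against 14.9 to 34.6 at their WT peaks.

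The second kind is 9 domains over coding starts. Vegfa (chr17:46027341-46032939), the vascular growth factor, had 3040 bp and 733 tags in KO and 5599 bp and 2511 tags in WT, a tag ratio of −2.03 (−2.15 to −1.91). Slc16a3 (chr11:120948100-120952720), the lactate exporter of glycolytic cells, had 3467 bp and 543 tags in KO and 4621 bp and 1479 tags in WT, a ratio of −1.70 (−1.84 to −1.56). Vegfa at −1.20 and Slc16a3 at −1.34 were also low per kb of called peak. Zap70 (chr1:36760998-36765684), the kinase that carries signals from ITAM receptors, had 1964 bp and 210 tags in KO and 4687 bp and 568 tags in WT, with −1.69 for tags and −0.49 per kb. Scml4 (chr10:42860211-42864443), a Polycomb-group protein, had 851 bp and 65 tags in KO and 4233 bp and 224 tags in WT, with −2.04 for tags and 0.22 per kb. The call at Scml4 thus rests on the short KO peak.

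The remaining 5 were named after their values were seen. Bnip3, a mitophagy receptor, had 387 tags in KO and 821 tags in WT, and the domain shared by Lrp2bp and the hypoxia-induced gene Ankrd37 had 281 tags in KO and 549 tags in WT. Cd53, a leukocyte tetraspanin, had 330 tags in KO and 595 tags in WT, Dennd2d had 518 in KO and 907 in WT, and the corepressor gene Cbfa2t3 had 368 in KO and 634 in WT. Vegfa, Slc16a3, Bnip3 and Ankrd37 are known targets of hypoxia-inducible factors. The lowest width ratios included these domains, with Dennd2d at −1.41 (2261 bp in KO, 6003 bp in WT) and the noncoding gene Gm12596 at −1.48 (2694 bp in KO, 7540 bp in WT).

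The tag ratio was above 0 in 359 domains, and the 8 highest are described here. The domain inside Camk2b (chr11:6005796-6010718), a neuronal calmodulin kinase, had 5049 bp and 1657 tags in KO and 4923 bp and 494 tags in WT, a tag ratio of 1.49 (1.35 to 1.64). It was the only one at 1 or more, and the domain inside Cep85 (chr4:134159293-134165203) followed with 1635 tags in KO and 696 tags in WT, a ratio of 0.98. The widths of both differed by less than 0.04 on the log2 scale, so here density and not span was higher. Sema6a, a semaphorin, had 611 tags in KO and 264 tags in WT. Tnfsf10 (chr3:27315983-27320667), the death ligand TRAIL that NK cells use to kill, had 5704 bp and 784 tags in KO and 4685 bp and 373 tags in WT, a ratio of 0.82 (0.64 to 1.00). Hic1, a zinc finger repressor, had 1683 tags in KO and 805 tags in WT. Plk1, a mitotic kinase, had 1659 tags in KO and 864 tags in WT. Ptger4, a prostaglandin E2 receptor, had 3034 tags in KO and 1648 tags in WT, and the domain inside Rpl3 had 1340 tags in KO and 730 tags in WT. These 8 domains had their intervals above 0, as had 194 domains in all, and such intervals cover counting error only.

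Wider in KO were 5 domains by more than 0.30 on the log2 scale. The domain inside Inpp4b, a phosphoinositide phosphatase, had 6946 bp in KO and 5134 bp in WT, and that of Pag1, an adaptor that holds the kinase Csk at the membrane, had 5439 bp in KO and 4090 bp in WT. Prr5, a subunit of the mTORC2 kinase complex, had 5113 bp in KO and 4143 bp in WT. The noncoding gene Gm26698 had 5483 bp and 935 tags in KO and 4069 bp and 685 tags in WT, and Mob3a with Izumo4 had 8094 bp and 1453 tags in KO and 6556 bp and 1001 tags in WT. At Gm26698 and Mob3a the KO peak also reached a neighbouring WT peak. Summed over the whole connected region their tag ratios were −0.17 and −0.15 in place of 0.20 and 0.29.

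The transcription factors of the lineage were often covered. So were other lists, such as activation genes (65.5%) and glycolysis and hypoxia genes (63.6%), while cell cycle genes (8.70%) were not. The lists were chosen with earlier results of these data known, so coverage is a description. Of the listed factors with a start in a shared peak 60.0% were covered, beside 8.62% of all such genes. Of 34 NK and lymphoid factors with a known start, 18 were covered by a domain (52.9%), beside 4.47% of all genes: Tbx21, Eomes, Id2, Nfil3, Zeb2, Prdm1, Ikzf1, Ikzf2, Runx3, Ets1, Fli1, Gata3, Klf6, Irf1, Irf2, Irf8, Foxo1 and Foxp1. Their median width ratio was −0.09 and their median tag ratio 0.01, beside −0.14 and −0.03 over all domains. Id2 inhibits E proteins and is needed for NK cells. Its domain had 9732 bp and 4031 tags in KO and 9964 bp and 3038 tags in WT. Irf8 had 7844 bp and 2497 tags in KO and 9036 bp and 2476 tags in WT, and Nfil3, an early factor of NK development, had 6789 bp and 2642 tags in KO and 8928 bp and 2888 tags in WT. Ikzf1 (Ikaros) had 8235 bp and 2908 tags in KO and 8563 bp and 2421 tags in WT. Ets1 stood out by span, with 5484 bp and 1648 tags in KO and 7960 bp and 1376 tags in WT, a width ratio of −0.54. Eomes and Tbx21 (T-bet), the T-box factors of NK maturation, had tag ratios of 0.02 (2930 tags in KO, 2434 in WT) and 0.19 (2840 in KO, 2092 in WT). Over the starts of these factors no domain had a tag ratio of −1 or less, or of 1 or more. Inside the genes 2 did, the Fli1 domain above and one in Elf4, an ETS factor, with 2717 bp and 249 tags in KO and 6377 bp and 446 tags in WT, a ratio of −1.09.

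Of 24 cytotoxic genes with a known start, 8 lay in domains (33.3%, beside 4.47% of all genes: Gzma, Prf1, Nkg7, Srgn, Serpinb9, Rab27a, Fasl and Tnfsf10) and 15 in smaller shared peaks, among them Gzmb, Gzmc, Ifng, Ccl3, Ccl4 and Ccl5. Gzma, a granzyme of the lytic granule, had 6604 bp and 2273 tags in KO and 7858 bp and 1461 tags in WT, a tag ratio of 0.39 (0.29 to 0.48) with a lower width. Prf1, the pore-forming perforin, had 6875 bp and 1499 tags in KO and 7765 bp and 1516 tags in WT, a ratio of −0.27. Gzma and Prf1 thus differed from the centre in opposite directions. The granule membrane gene Nkg7 had 8775 bp and 2202 tags in KO and 8629 bp and 1879 tags in WT. Srgn, the proteoglycan that packs granules, had 785 tags in KO and 662 tags in WT, and the death ligand gene Fasl had 1349 tags in KO and 971 tags in WT. Over the 8 domains the median tag ratio was 0.07, with 4 above and 4 below 0.

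Receptor genes lay on both sides of the centre. Of 28 NK receptors and adaptors 11 were covered (39.3%, beside 4.47% of all genes), in 10 domains. The 11 were Ncr1, Klrk1, Klrb1c, Klrd1, Klre1, Cd244a, Slamf7, Fcer1g, Tyrobp, Hcst and Ptprc. Klrd1 (CD94), the partner of NKG2 receptors, had 2250 bp and 236 tags in KO and 5185 bp and 393 tags in WT, a tag ratio of −0.99 (−1.22 to −0.75). Its neighbour Klre1, an inhibitory lectin-like receptor, had 4690 bp and 512 tags in KO and 7674 bp and 659 tags in WT. Klrk1 (NKG2D) in the same cluster had 4139 bp and 339 tags in KO and 4191 bp and 388 tags in WT, a ratio of −0.45 with nearly equal width. In contrast Ncr1 (NKp46) had 4906 bp and 942 tags in KO and 4843 bp and 572 tags in WT, a ratio of 0.47 (0.32 to 0.62). Slamf7, a receptor of the SLAM family, had 3492 bp and 594 tags in KO and 5284 bp and 779 tags in WT, whereas Cd244a (2B4) of that family had 5146 bp and 1034 tags in KO and 5705 bp and 839 tags in WT. The list's median tag ratio was −0.20, with 5 domains above and 5 below 0.

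Cytokine receptors and their feedback genes were covered at 12 of 32 (37.5%, beside 4.47% of all genes), with a median tag ratio of −0.09. The 12 were Il2rb, Il4ra, Il10ra, Il12rb1, Il12rb2, Il18r1, Il18rap, Ifngr1, Socs1, Socs2, Cish and Pim1. Pim1, a kinase induced by STAT5, had 7042 bp and 3516 tags in KO and 8006 bp and 3115 tags in WT. Cish, a STAT5-induced brake on IL-2 and IL-15 signals, had 5969 bp and 1920 tags in KO and 6497 bp and 1303 tags in WT, a ratio of 0.31. The STAT-induced inhibitors Socs1 and Socs2 had 0.13 and 0.21. The interferon-γ receptor gene Ifngr1 had 3858 bp and 1027 tags in KO and 6331 bp and 1080 tags in WT, and Il12rb1 had 3860 bp and 1004 tags in KO and 5347 bp and 967 tags in WT. Of the 8 receptor genes covered, Il12rb2 alone had a ratio above 0, at 0.44 (810 tags in KO, 501 in WT). Among all domains 57.1% were below 0, and the intervals at Il2rb (−0.14 to 0.01) and Il18rap (−0.30 to 0.11) lay over 0.

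Activation genes were covered at 19 of 29 (65.5%, beside 4.47% of all genes). The 19 were Fosl2, Jun, Junb, Jund, Egr1, Egr2, Egr3, Nr4a3, Ier2, Dusp2, Dusp5, Zfp36, Zfp36l1, Zfp36l2, Btg1, Btg2, Rel, Tnfaip3 and Myc. Their median tag ratio was 0.01 and their median width ratio −0.08. Zfp36l2, which destabilises AU-rich mRNA, had 9932 bp and 4386 tags in KO and 9852 bp and 3734 tags in WT, and the orphan receptor gene Nr4a3 had 7759 bp and 2965 tags in KO and 8155 bp and 2309 tags in WT. Dusp5, a phosphatase of ERK, had 5538 bp and 2835 tags in KO and 8987 bp and 2728 tags in WT, the lowest width ratio among the 6 widest of the list. Zfp36l1 had 6904 bp in KO and 7623 bp in WT, Fosl2 had 6996 bp in KO and 7607 bp in WT, and Btg1 had 6768 bp in KO and 6732 bp in WT.

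Of 16 survival and death regulators 7 were covered (43.75%, beside 4.47% of all genes). Among them were Bcl2, Bcl2l1, Bcl2l11, Mcl1, Bbc3 and Cflar. Bcl2, which keeps mitochondria intact, had 6840 bp and 2709 tags in KO and 7731 bp and 2159 tags in WT, and Bcl2l11 (Bim), its antagonist, had 4579 bp and 2340 tags in KO and 6504 bp and 2230 tags in WT. Of 30 chromatin regulators 9 were covered (30%, beside 4.47% of all genes), including 4 genes of H3K4 methyltransferases. The 9 were Kmt2a, Kmt2b, Kmt2d, Setd1b, Arid1a, Arid1b, Ep300, Ncor1 and Chd4. Arid1a, a SWI/SNF subunit, had 7714 bp and 4470 tags in KO and 7486 bp and 4071 tags in WT. Of these 9, 8 had a tag ratio below 0, beside 57.1% of all domains, the lowest of them −0.17 at Setd1b. The intervals at Kmt2a (−0.13 to 0.05) and Ep300 (−0.10 to 0.08) lay over 0. Of 23 Tcf/Lef and Wnt genes 5 were covered (21.7%, beside 4.47% of all genes): Lef1, Gsk3b, Rnf43, Tle3 and Ccnd2. Lef1, the family member closest to Tcf1 in T cells, had 4290 bp and 1437 tags in KO and 5069 bp and 1463 tags in WT, a ratio of −0.28 (−0.38 to −0.17). Rnf43, a brake on Wnt receptors, had 4988 bp and 1007 tags in KO and 4875 bp and 601 tags in WT, a ratio of 0.49. Of 23 cell cycle genes Mki67 (1809 tags in KO, 1151 in WT) and Plk1 were the 2 covered. Of 19 ribosomal and housekeeping genes 7 were covered (36.8%, beside 4.47% of all genes), with a median tag ratio of 0.17. Among them were Actb, B2m, Ywhaz, Eef1a1, Tubb5 and Rpl13a.

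Glycolysis and hypoxia genes had the lowest list medians of width and of tags. Of 22 genes 14 were covered (63.6%, beside 4.47% of all genes). The 14 were Slc2a1, Hk2, Gpi1, Pfkp, Aldoa, Gapdh, Pgk1, Pgam1, Eno1, Pkm, Ldha, Egln1, Vegfa and Bnip3. All 14 were narrower in KO, beside 86.3% of all domains, with a median width ratio of −0.53 beside −0.14. All 14 had a tag ratio below 0, beside 57.1% of domains and 50% of all shared peaks, with a median of −0.35 and every interval below 0. The list was chosen with earlier results of these data known, in which Vegfa was already low, so this is no independent evidence of direction. Per kb of called peak 5 of the 14 were below 0 (Vegfa, Bnip3, Egln1, Pkm and Hk2) and the median was 0.06. These 5 were thus low per kb as well as narrower, and the others were narrower without being low per kb.

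Single steps of glycolysis show the same shape. Eno1, the enolase of most tissues, had 4641 bp and 1839 tags in KO and 7958 bp and 1893 tags in WT. Pkm, pyruvate kinase, had 5717 bp and 1401 tags in KO and 7153 bp and 1539 tags in WT. Gpi1, which converts glucose 6-phosphate to fructose 6-phosphate, had 3156 bp and 937 tags in KO and 6130 bp and 1279 tags in WT, a tag ratio of −0.70 (−0.82 to −0.58). Aldoa, an aldolase, had 4328 bp and 1743 tags in KO and 6095 bp and 1772 tags in WT, and Gapdh had 4995 bp and 1896 tags in KO and 6088 bp and 1857 tags in WT. Raw tags were thus nearly equal at several of these genes, and subtracting the centre of 0.25 lowered their ratios further. Without centring the ratio was below 0 at 11 of the 14 covered genes, with a median of −0.09. Outside the 6 widest, Slc2a1 (the glucose transporter GLUT1) had 2657 bp and 1014 tags in KO and 4850 bp and 1190 tags in WT, and Ldha (lactate dehydrogenase A) had 3299 bp and 1556 tags in KO and 5072 bp and 1557 tags in WT.

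The KO downstream end was nearer to the start at all 14, by a median of 1492 bp, and by at least 1000 bp at 11 of 14, beside 18.3% of single-gene domains. The upstream end was nearer at 12 of 14, by a median of 240 bp over the 14. The median differences, KO minus WT, were −37.6% of the WT downstream arm and −18.4% of the WT upstream arm, beside −7.96% and −7.09% over all single-gene domains. The downstream arm lost more bases at 13 of 14. The exception was Egln1, a prolyl hydroxylase that marks hypoxia-inducible factors for breakdown, with an upstream arm of 1350 bp in KO and 1791 bp in WT and a downstream arm of 3309 bp in KO and 3502 bp in WT. At Eno1 the downstream arm was 3477 bp in KO and 6452 bp in WT, while the upstream arm was 1164 bp in KO and 1506 bp in WT. At Slc2a1 the downstream arm was 2238 bp in KO and 4406 bp in WT, with upstream arms of 419 bp in KO and 444 bp in WT. The list's 7 members in smaller shared peaks are outside the choice by WT width. They are not outside the choice of the list, made with earlier results known, so their values are a description too. Of these, 6 had a tag ratio below 0, beside 49.4% of all smaller shared peaks. Their median tag ratio was −0.37 and their median width ratio −0.30. The lowest were Ak4, an adenylate kinase (205 tags in KO, 988 in WT, −2.52), and Pdk1, which inhibits pyruvate dehydrogenase (452 tags in KO, 703 in WT, −0.89). Slc2a3 was above 0 (473 tags in KO, 368 in WT, 0.11).

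**Figure D4:**
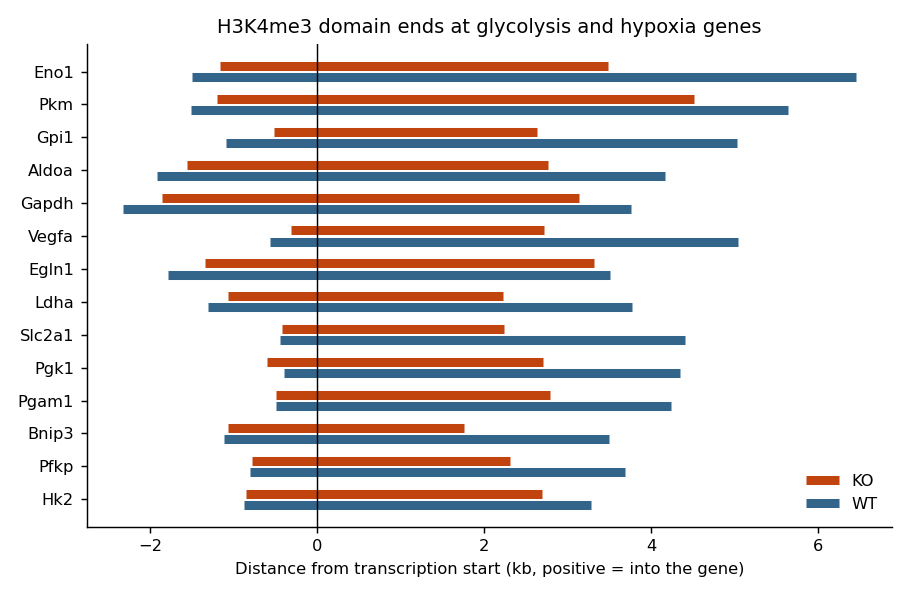
Upstream and downstream ends of the H3K4me3 peak around the start of transcription (kb, positive into the gene) at the 14 covered glycolysis and hypoxia genes, KO line above WT line. The KO line ends nearer to the start on the right at all 14.

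**Figure D5:**
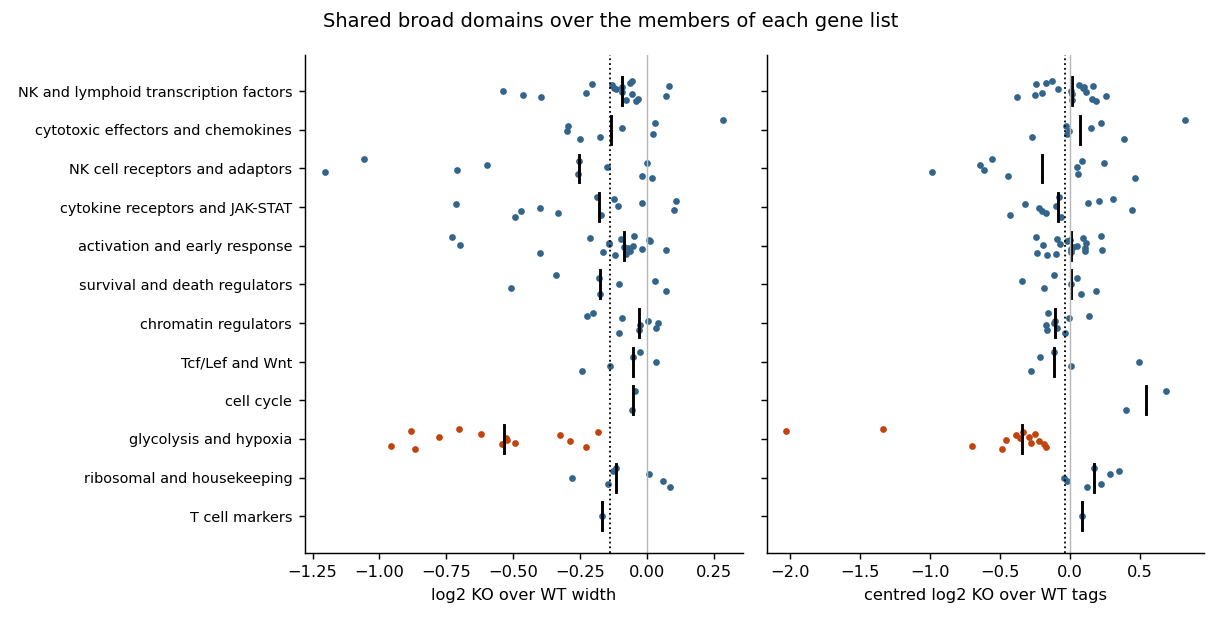
Each point is 1 domain over a member of the list named at left, with the log2 KO over WT width on the left panel and the centred log2 tag ratio on the right panel. Black bars are list medians and dotted lines the medians of all 837 domains, −0.14 and −0.03. The glycolysis and hypoxia points (orange) all lie left of 0 in both panels.

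The microRNA loci were wide in both genotypes. The domain over Mir142, a microRNA of all blood cells (chr11:87749754-87759142), had 11006 bp and 3546 tags in KO and 9389 bp and 2488 tags in WT, a tag ratio of 0.26 (0.19 to 0.33). Its KO peak also reached a neighbouring WT peak, and over the connected region, with 3546 tags in KO and 2647 tags in WT, the ratio was 0.17. The domain over Mir21a inside Vmp1 (chr11:86581273-86588711) had 6873 bp and 1743 tags in KO and 7439 bp and 1391 tags in WT. That over Mirlet7i (chr10:122982876-122987279) had 4377 bp and 1885 tags in KO and 4404 bp and 1641 tags in WT. The let-7i domain was nearly equal in width. In all, 18 of 1005 table hairpins lay in 16 domains and 82 in smaller shared peaks.

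Few domains held a Tcf1 peak. On these chromosomes 4976 peaks of the Tcf1 libraries were called in KO alone and 734 in WT alone, and 114 WT peaks were also called in KO. The Tcf7-/- library thus had the more peaks of its own, so a call in WT alone is not by itself evidence of Tcf1 binding. Tcf1 peaks called in WT alone overlapped 7 of 837 domains (0.836%, 0.406 to 1.72), beside 17 of 9827 smaller shared peaks (0.173%) and 0.225% of all shared peaks. Per megabase of peak the density was 1.58 in domains and 0.781 in smaller shared peaks. Peaks called in KO alone, and WT peaks also called in KO, each overlapped 0 of 837 (Wilson interval 0 to 0.457%). The genes of the 7 domains with a WT-only peak were Sh2b1, Tbl1xr1, Prr5, Fosl2, Ino80d, Kmt2d and Rasa1. Their Tcf1 peaks had scores of 82.4 down to 50.5 and FDRs of 8.67% up to 28.9% in the authors' lists. Tbl1xr1 is a subunit of the corepressor complexes that also bind β-catenin, and Rasa1 turns off Ras. None of the 7 had a tag ratio of −1 or less, or of 1 or more. Sh2b1 had 1455 tags in KO and 1292 tags in WT, a ratio of −0.08, and Rasa1 had 1630 tags in KO and 1490 tags in WT, a ratio of −0.12. Tcf1 peaks were so rare and of such low score here that no relation to the domains can be read.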

How the data were processed

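Splenic NK cells were assayed by ChIP-seq with 100-base single-end reads. Named in the submitters' processing notes are MACS 1.4, Bowtie2 2.1.0, and GRCh37, GRCm38 and mm10 as builds. What each was used for, how peaks were called and against which control is not given in the sources used here. Coordinates are printed as GRCm38. Reads and input libraries were not analysed here, so depth per library is unknown.

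Per the file headers, the deposited peak lists hold a count of tags (not scaled to depth), a length in bp, a score of 10 times the negative log10 of the p-value, a ratio (fold enrichment) and an FDR in percent. The authors called peaks per library. Rows, 1 per peak and feature, were reduced to distinct peaks, and starts were converted to count from 1.

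KO peaks over a WT peak were summed. Start sites came from the RefSeq GRCm38.p6 tables and the 5′ ends of genes and Ensembl features in the lists, for 19786 of 21631 coding genes. Shares have 95% Wilson intervals, and tag ratios have Poisson counting intervals. With 1 library per group no test was run. The 16 lists and the members were chosen with earlier results of these data known. Named were the 12 widest domains, the 10 lowest and 8 highest tag ratios, the 8 lowest and 5 highest width ratios, domains over many KO peaks, those with a WT-only Tcf1 peak, those at the width limit, and each list's covered members with values for the 6 widest. Others are named as chosen after their values were seen. A few covered list members are not reported here. Overlap, width ratio and tag ratio steps were tested on simulated data. Tools were scipy 1.17.1, pandas 2.3.3 and numpy 2.4.6 under Python 3.11.15, with matplotlib 3.10.9 for figures. Alternatives changed the width limit, overlap, score, FDR, joining, choosing library and scaling.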

Additional observations from a re-analysis of the deposited data

How the results depend on the processing

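No paired analysis was possible because each group held 1 library. Depth is unknown, sums cover called peaks only, and the 2 libraries differ in fold enrichment, strain label and called width, which 1 library per genotype cannot separate. The median width ratio was between −0.07 and −0.18 under all alternatives run. With a WT width of at least 3000 bp there were 2229 domains, 41 with tag ratios of −1 or less, 4 of 1 or more, and 182 list genes covered. With at least 5000 bp these were 365, 10, 0 and 69. With neighbouring peaks under 1000 bp apart joined, 47 domains had a KO width of 0.5 of WT or less, 28 a tag ratio of −1 or less and 2 of 1 or more. Chosen by KO width, these were 6, 3 and 3, and the median tag ratio was 0.0154. The median tag ratio was also above 0 per kb of peak (0.0918, with 3 at −1 or less), centred on all tags (0.0386, with 3 at 1 or more) and not centred (0.217, with 11 at −1 or less and 5 at 1 or more). Per kb, 232 of the 478 domains with tag ratios below 0 were above 0, among them 7 of 10 such in the 12 widest (Ugcg, Stk17b, Chsy1, Ptprc and Rhoq by most), Dennd2d (0.29) and Scml4 (0.22). Of the 18 low domains 2 were at −1 or less. The 14 glycolysis and hypoxia domains had tag ratios below 0 under 6 alternatives (overlap, score, FDR, joining, centring on all tags, connected regions), in 5 of 14 per kb and in 11 of 14 without centring. Requiring 50% overlap, a score of at least 100 or an FDR of at most 1%, or counting KO bases inside the WT domain, moved no count by more than 1.5 times.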

Other observations

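Broad peaks also lay outside the shared domains. Of the 562 KO peaks of at least 4000 bp that overlap a WT peak, 37 lay on WT peaks under that width. Rnf220, a ubiquitin ligase gene, differed most, with 4364 bp and 519 tags in KO and 1723 bp and 64 tags in WT. Rrm2, a ribonucleotide reductase subunit needed for DNA synthesis, had 4256 bp and 1612 tags in KO and 3805 bp and 813 tags in WT. The replication-dependent histone cluster with H2bc23, H2ac23 and H4c17 had 6207 bp and 680 tags in KO and 5596 bp and 376 tags in WT. Histone genes are near-identical copies, so this value is uncertain. Cks2, a partner of cyclin-dependent kinases, had 1125 tags in KO and 738 tags in WT.

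The 17 wide WT peaks without a KO peak differed in kind. Those over coding starts were Gstt2 (257 WT tags), Ltb4r1 (453), Tmem119 (390), Lrrc32 (356), Tnfrsf26 (297) and Hjurp with Trpm8 (1747). The others included a ribosomal RNA pseudogene, 2 tRNA clusters and Erdr1. Ribosomal RNA and tRNA genes exist in many copies, so their values are uncertain.

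Of 23 cell cycle genes 2 lay in domains (8.70%, beside 8.62% of all marked genes). The others lay in smaller shared peaks, where 1 of 21 had a tag ratio below 0, beside 49.4% of all smaller shared peaks. Their median was 0.39. This list too was chosen with earlier results of these data known, so these values are a description.

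Some domains lay close together. In all, 64 pairs lay under 50 kb apart, and the T cell receptor β locus held 2 domains over its joining segments. The first had 1837 tags in KO and 1704 tags in WT, and the second had 652 tags in KO and 433 tags in WT.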
